A study of Mus musculus with 18 samples.

Results

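*Nfat5* and 6 genes of organic osmolyte handling were followed through liver, epididymal white adipose tissue (eWAT) and quadriceps (QU) muscle of mice on a high-salt diet (HSD) or a control diet (CON). The 7 genes, *Nfat5*, *Slc38a2*, *Slc6a6*, *Slc5a3*, *Slc6a12*, *Slc6a13* and *Akr1b3*, were taken by name from the 21899 genes with a deposited expression value. The set was chosen by the muscle values of *Slc38a2*, which were higher under HSD, and the question was whether other genes that answer to tonicity moved with it. The muscle values of *Slc38a2* are therefore given as a description, without a test.

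All mice were wild-type C57BL/6 males aged 18 weeks. HSD mice had eaten a diet with 8% NaCl and drunk 0.9% saline for 12 weeks from an age of 6 weeks, and CON mice had received chow and tap water. Each of the 6 groups (3 tissues under 2 diets) held 3 libraries of rRNA-depleted total RNA, so that 18 libraries were compared. Library codes name 8 mice in all. The same 6 codes occur in eWAT and muscle, and 4 of them again in liver, so the tissues are not independent of each other. No label gives a batch. Values are FPKM, that is, fragments scaled by gene length and by the total of the library, and therefore a level per length.

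NFAT5, also called the tonicity-responsive enhancer binding protein, is the transcription factor through which mammalian cells raise their content of small organic solutes when the fluid around them becomes hypertonic. These solutes, myo-inositol, betaine, taurine, sorbitol and neutral amino acids, balance the osmotic pull of salt without disturbing proteins. The response is best known in the renal medulla, where the carriers of myo-inositol, betaine and taurine and the enzyme aldose reductase are classical NFAT5 targets, while *Slc38a2* also answers to a lack of amino acids.

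Some libraries stood apart from others of their tissue. Fragments on genes numbered 7578499 to 16187577 per library. Mitochondrially encoded genes held 26.0% to 61.2% of them in CON liver and 15.5% to 44.7% in HSD liver. They held 3.61% to 5.27% in eWAT and 12.0% to 17.3% in muscle. Marker genes of hepatocytes, adipocytes and skeletal muscle were highest in the tissue they belong to. The eWAT library HS3W (HSD replicate 2) had a summed level of epididymal epithelium markers of 22504 FPKM, with all 20 of them at 1 FPKM or more, against 1.33 to 14.9 FPKM in the other eWAT libraries. Its adipocyte markers summed to 8014 FPKM, against 18650 to 25591 FPKM in the others. The liver library CON16L (CON replicate 2) had 5566 FPKM of skeletal muscle markers, 7.12% of the mean level in CON muscle, against 2.78 to 7.57 FPKM in the other liver libraries. The liver library CON14L (CON replicate 1) had the mitochondrial share of 61.2%. Its hepatocyte markers summed to 19889 FPKM, against 45228 to 101113 FPKM in the other liver libraries. Several values of the osmolyte genes without these libraries are given beside the result.

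*Slc6a12* and *Slc6a13* are neighbours on chromosome 6, and their promoters are shown because a sequence of the tonicity-responsive enhancer (TonE), the element that NFAT5 recognises, occurred in them. RefSeq (GRCm38.p6) listed start sites for 5 of the 7 genes, 11 in all, with no entry for *Slc6a6* and *Akr1b3*. The 250 bases before each start were searched on both strands for TonE, for TGGAAA, with which TonE begins, and for TGATGNAA, the core of the amino acid response element. TonE was found in 2 of the 11 windows and TGGAAA in the same 2, where both matches overlap, while TGATGNAA was found in 0. Over all 32851 windows of the same length, 4.31% held TonE, 18.6% held TGGAAA and 3.45% held TGATGNAA. The windows with a match belong to the first start of *Slc6a12* (chr6:121342324-121342573, plus strand, match on the plus strand beginning 75 bases before the start) and to the third start of *Slc6a13* (chr6:121303389-121303638, plus strand, match on the minus strand with its TGGAAA 72 bases before the start). Capitals mark the TonE match.
Slc6a12: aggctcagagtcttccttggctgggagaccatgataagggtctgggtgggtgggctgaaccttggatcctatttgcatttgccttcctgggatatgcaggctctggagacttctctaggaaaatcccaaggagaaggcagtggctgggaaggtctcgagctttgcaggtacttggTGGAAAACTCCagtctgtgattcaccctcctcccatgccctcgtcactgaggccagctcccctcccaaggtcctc
Slc6a13: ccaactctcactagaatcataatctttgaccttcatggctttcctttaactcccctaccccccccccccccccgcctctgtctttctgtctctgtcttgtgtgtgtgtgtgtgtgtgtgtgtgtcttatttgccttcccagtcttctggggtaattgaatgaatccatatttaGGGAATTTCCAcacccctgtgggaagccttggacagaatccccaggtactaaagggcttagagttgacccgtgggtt
The other 9 windows, among them that of *Slc38a2*, held none of these letters. The window of *Slc38a2* (chr15:96699731-96699978, minus strand, without the bases that its first exon covers) is given because this gene prompted the comparison.
Slc38a2: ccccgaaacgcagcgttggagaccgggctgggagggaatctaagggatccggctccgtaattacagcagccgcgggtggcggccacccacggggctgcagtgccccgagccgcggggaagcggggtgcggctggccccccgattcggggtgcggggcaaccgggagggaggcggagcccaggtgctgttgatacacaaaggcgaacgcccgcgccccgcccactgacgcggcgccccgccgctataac
A match or its lack in such a window is a description of the letters and says nothing of binding.

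In QU muscle, *Slc38a2* stood higher in HSD mice, and none of the other genes that could be tested was called changed. *Slc38a2* (ENSMUSG00000022462, chr15:96687392-96699730, mm10, minus strand) encodes a sodium-coupled carrier of small neutral amino acids such as alanine, glutamine and proline. It was at 17.7, 16.1 and 18.0 FPKM in CON muscle and at 42.4, 49.7 and 32.6 FPKM in HSD muscle. Every HSD library lay above every CON library, and HSD replicate 3 was the closest to them. The means were 17.3 ± 0.989 and 41.6 ± 8.58 FPKM (SD, n = 3), with a log2 fold change of 1.23 (SE 0.16). This value chose the gene set and has no test here.

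For the other genes, the HSD and CON groups of each tissue were compared by limma on log2(FPKM + 0.5), the scale of every log2 fold change given here. DEGs had to change at least 2-fold with an adjusted p (Benjamini-Hochberg, over all genes tested) below 0.05. In muscle 35 of 10834 genes (0.323%) were DEGs, and 54 with the replicate number as a block, while 0.895% passed by adjusted p alone. Beside *Slc38a2*, 4 genes of the set passed the filter of a mean of 0.5 FPKM, and none of these 4 was a DEG.

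*Nfat5* (ENSMUSG00000003847, chr8:107293470-107379517, mm10, plus strand) was at 3.18, 3.13 and 3.0 FPKM in CON muscle and at 3.62, 2.97 and 3.42 FPKM in HSD muscle. The groups overlapped, since HSD replicate 2 was the lowest of the 6. The log2 fold change was 0.09 (95% interval -0.18 to 0.35, limma adjusted p = 0.764).

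*Slc6a6* (ENSMUSG00000030096, chr6:91684053-91759066, mm10, plus strand), the taurine carrier, was at 19.1, 15.9 and 14.9 FPKM in CON muscle and at 22.4, 14.0 and 19.3 FPKM in HSD muscle. The spread within either diet was larger than the distance between their means, with a log2 fold change of 0.14 (95% interval -0.26 to 0.53, limma adjusted p = 0.746).

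*Akr1b3* (ENSMUSG00000001642, chr6:34302434-34317478, mm10, minus strand), the aldose reductase that makes sorbitol from glucose, was at 20.4, 21.1 and 22.5 FPKM in CON muscle and at 18.4, 24.8 and 22.9 FPKM in HSD muscle. HSD libraries were both the lowest and the highest of the 6, and the log2 fold change was 0.04 (95% interval -0.26 to 0.34, limma adjusted p = 0.919).

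*Slc5a3* (ENSMUSG00000089774, chr16:92058322-92087473, mm10, plus strand), the sodium-coupled carrier of myo-inositol, was low in muscle, at 0.369 to 0.580 FPKM in CON and 0.475 to 0.621 FPKM in HSD. The groups overlapped (log2 fold change 0.07, 95% interval -0.28 to 0.43, limma adjusted p = 0.861). Its exons overlap those of *Mrps6* and *Gm49711* on the same strand, so its level is uncertain in every tissue.

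The genes below the filter in muscle were *Slc6a12* (ENSMUSG00000030109, chr6:121343076-121365775, mm10, plus strand), the carrier of betaine and GABA, and *Slc6a13* (ENSMUSG00000030108, chr6:121300227-121337733, mm10, plus strand), which carries GABA and taurine. *Slc6a12* had 0 to 4 fragments per muscle library. In CON replicate 3 and HSD replicate 1 it had 0, which allows up to 0.0879 and 0.0738 FPKM, the level of 3 fragments. *Slc6a13* had 3 to 19 fragments per muscle library. A difference between diets was not detectable at this depth for either gene.

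**Figure D1:**
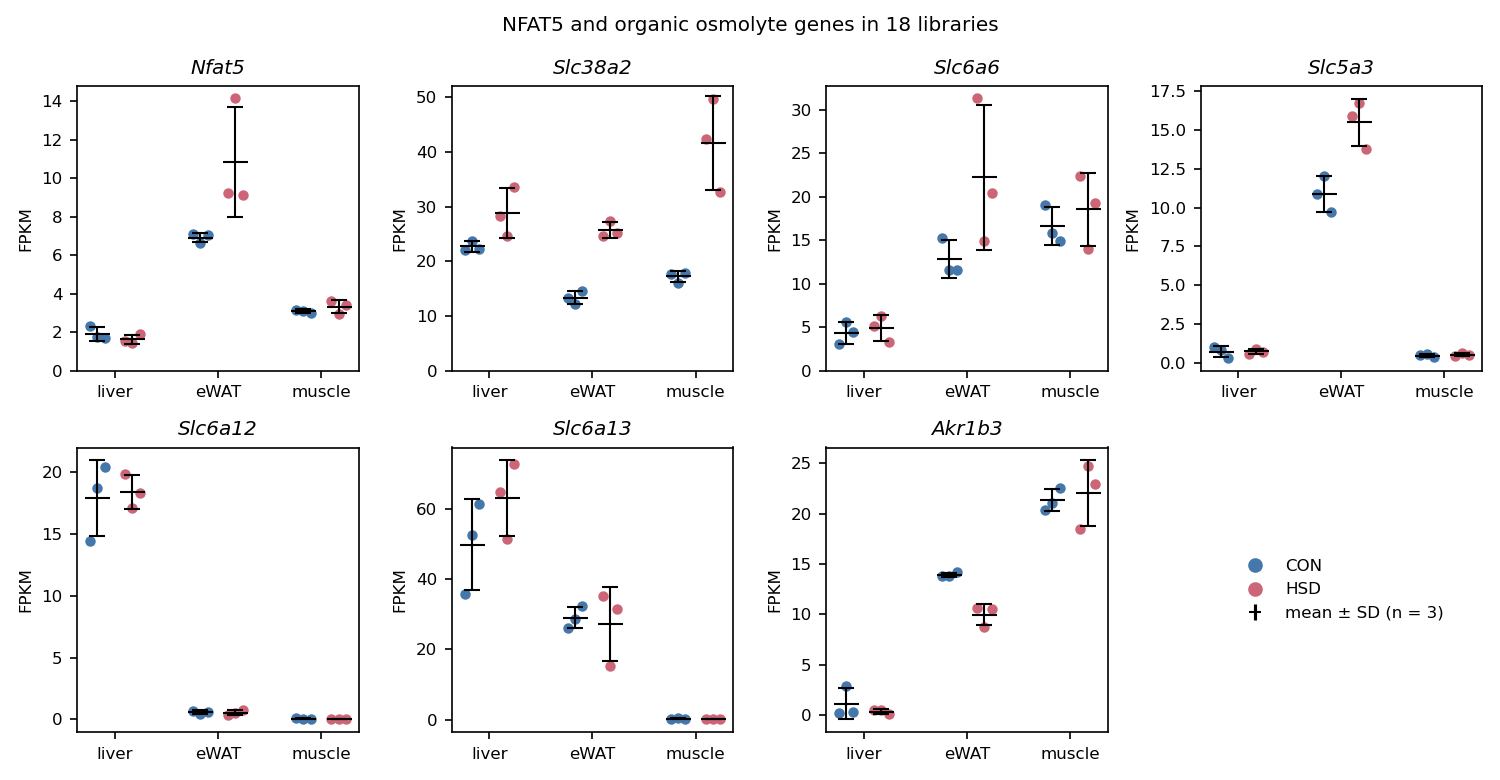
FPKM of the 7 genes in liver, eWAT and muscle, with 1 point per library, blue for CON and red for HSD, and bars for the mean and SD of 3 libraries. *Slc38a2* in HSD muscle lies between 32.6 and 49.7 FPKM, above CON muscle at 16.1 to 18.0 FPKM, while the other panels show little distance between diets in muscle.

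Macrophage markers were lower in HSD muscle alongside these values: the 13 markers summed to 59.8 to 95.8 FPKM in CON and 43.8 to 48.2 FPKM in HSD. Their part in the results was not tested. In bulk tissue, fewer cells of a type and less RNA per cell cannot be told apart.

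In eWAT, *Slc38a2*, *Nfat5* and *Slc5a3* were higher and *Akr1b3* was lower in every HSD library than in any CON library, but no gene of the set passed the adjusted threshold. Of all 13740 genes tested in eWAT, 0% were called by limma at either rule, 16.7% had an unadjusted p below 0.05 and 28.6% had groups that did not overlap (16.2% higher and 12.4% lower in HSD). Of the 7 genes, 5 had an unadjusted p below 0.05 and 4 had groups that did not overlap, 3 of them higher in HSD. Their median log2 fold change of 0.49 compared with 0.08 over all genes tested.

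*Slc38a2* was at 13.4, 12.2 and 14.5 FPKM in CON eWAT and at 24.7, 27.4 and 25.2 FPKM in HSD eWAT. All 3 HSD libraries lay well above the CON libraries and close to each other. The means were 13.4 ± 1.17 and 25.8 ± 1.46 FPKM (SD, n = 3), with a log2 fold change of 0.92 (SE 0.10, 95% interval 0.67 to 1.17, limma adjusted p = 0.0830). These libraries came, by their codes, from the same mice as the muscle libraries that chose the gene.

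*Nfat5* was at 7.08, 6.64 and 7.04 FPKM in CON eWAT and at 9.25, 14.1 and 9.12 FPKM in HSD eWAT. The highest value was that of HS3W, the library with epididymal markers, and the other HSD libraries also lay above CON. The log2 fold change was 0.58 (SE 0.18, limma adjusted p = 0.224), and it was 0.38 (SE 0.07) without HS3W.

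*Slc6a6* was at 15.3, 11.6 and 11.6 FPKM in CON eWAT and at 31.3, 14.9 and 20.5 FPKM in HSD eWAT. The groups overlapped only through HS3W, which at 14.9 FPKM lay below CON replicate 1. The log2 fold change was 0.72 (SE 0.28, limma adjusted p = 0.283) and 0.97 (SE 0.21) without HS3W. It was 0.44 (SE 0.20, limma adjusted p = 0.391) without HS2W, the highest of the HSD libraries.

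*Slc5a3* was at 10.9, 12.0 and 9.71 FPKM in CON eWAT and at 15.9, 16.7 and 13.8 FPKM in HSD eWAT. The groups did not overlap, with a log2 fold change of 0.49 (SE 0.12, limma adjusted p = 0.167). *Mrps6*, a mitochondrial ribosomal protein gene that shares exons with it, was at 14.1, 17.6 and 14.8 FPKM in CON and at 16.2, 23.0 and 17.4 FPKM in HSD, with overlapping groups.

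*Akr1b3* was at 13.8, 13.8 and 14.2 FPKM in CON eWAT and at 10.6, 8.74 and 10.5 FPKM in HSD eWAT. It was the gene of the set that lay below CON in every HSD library, and HS3W was again the farthest from CON. The log2 fold change was -0.47 (SE 0.10, limma adjusted p = 0.152), and it was -0.38 (SE 0.07) without HS3W.

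*Slc6a13* was at 26.1, 28.7 and 32.3 FPKM in CON eWAT and at 35.0, 15.1 and 31.5 FPKM in HSD eWAT, where HS3W was the lowest of the 6. Its log2 fold change of -0.17 (95% interval -0.96 to 0.62) turned to 0.20 (95% interval -0.07 to 0.46) without that library. *Slc6a12* was low, at 0.411 to 0.715 FPKM in CON and 0.360 to 0.776 FPKM in HSD (log2 fold change -0.04, 95% interval -0.75 to 0.66), and its groups overlapped.

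Without HS3W, a comparison added after its markers were seen, 7.43% of 13245 genes had a limma adjusted p below 0.05 (3.67% higher in HSD), and 46.7% had groups that did not overlap. *Slc38a2* (log2 fold change 0.88, adjusted p = 0.0212), *Slc6a6* (0.97, adjusted p = 0.0497) and *Nfat5* (0.38, adjusted p = 0.0404) were higher and *Akr1b3* (-0.38, adjusted p = 0.0330) was lower at that threshold, while *Slc5a3* missed it (0.44, adjusted p = 0.0764). None of the 5 reached a 2-fold change there. All limma fits of eWAT under the other settings kept the direction of these 5 genes.

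**Figure D2:**
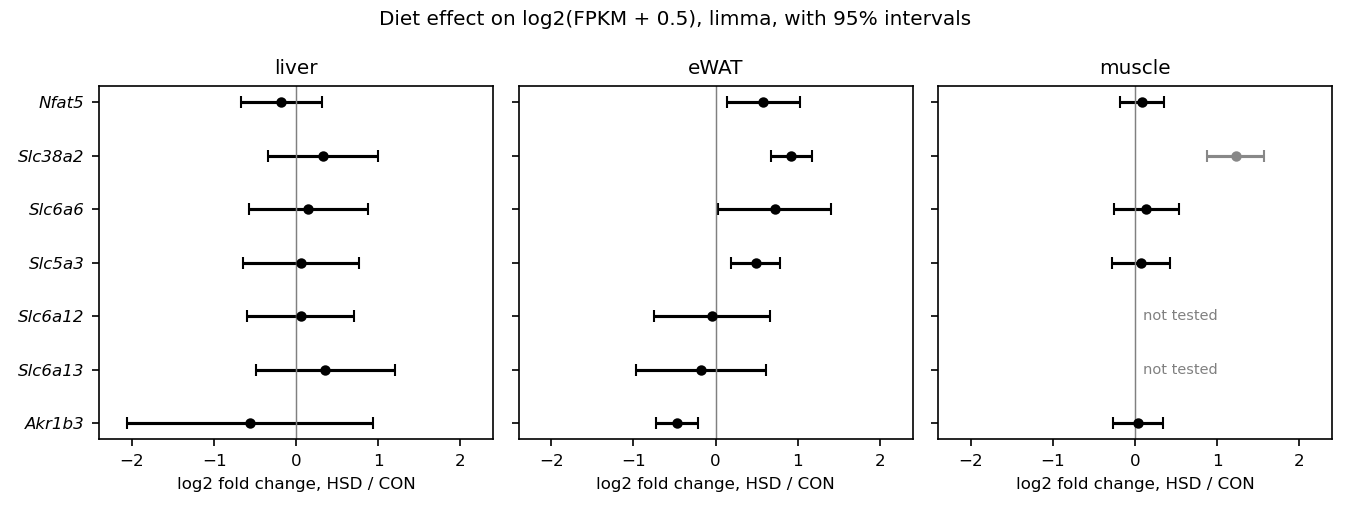
Log2 fold change, HSD over CON, of the 7 genes in each tissue, with limma 95% intervals over all labelled libraries. In eWAT the intervals of 5 genes exclude 0 before adjustment. In muscle those of *Nfat5*, *Slc6a6*, *Slc5a3* and *Akr1b3* include 0, and *Slc6a12* and *Slc6a13* were not tested there. The grey interval of *Slc38a2* in muscle, whose value prompted the set, is drawn as a description and is not a test.

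Other cell type markers differed between the diets in eWAT as well. Macrophage markers summed to 609 to 901 FPKM in CON and 269 to 576 FPKM in HSD, and 16 of the 17 hepatocyte markers tested lay below CON in every HSD library. The sum of the hepatocyte markers was nevertheless 1146 to 1669 FPKM in CON and 676 (HS3W), 2155 and 2580 FPKM in HSD. Skeletal muscle markers summed to 38.0 to 45.1 FPKM in CON and 56.1 to 68.6 FPKM in HSD, and 7 of the 11 tested lay above CON in every HSD library. Male germ cell markers summed to 6.35 to 66.7 FPKM in CON and to 682 (HS2W), 339 (HS3W) and 47.8 FPKM (HS5W) in HSD. HS2W stayed in the comparison without HS3W. The part of these markers in the values of the osmolyte genes was not tested.

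In liver none of the 7 genes was called, as was true of all 10317 genes tested (0% by limma at either rule, 5.74% at an unadjusted p below 0.05). None of the 7 had an unadjusted p below 0.05. *Slc38a2* was at 22.2, 23.8 and 22.2 FPKM in CON liver and at 28.3, 24.6 and 33.7 FPKM in HSD liver. The groups did not overlap, as for 12.1% of genes (8.62% higher and 3.47% lower in HSD), although HSD replicate 2 came within 1 FPKM of CON replicate 2. The log2 fold change was 0.33 (95% interval -0.35 to 1.00, limma adjusted p = 0.765). It turned to -0.09 when mitochondrially encoded genes were left out and the rest rescaled, and to -0.05 after quantile normalization.

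*Nfat5* was at 2.35, 1.76 and 1.68 FPKM in CON liver and at 1.56, 1.44 and 1.92 FPKM in HSD liver, with overlapping groups (log2 fold change -0.18, 95% interval -0.68 to 0.31, limma adjusted p = 0.804). *Slc6a13*, the highest of the set in liver, was at 35.6, 52.5 and 61.2 FPKM in CON and at 64.7, 51.4 and 72.7 FPKM in HSD. Its log2 fold change of 0.36 had an interval from -0.49 to 1.21, and it was 0.13 without CON14L, which held the lowest value. *Slc6a12* ranged from 14.4 to 20.4 FPKM in CON and from 17.04 to 19.8 FPKM in HSD (log2 fold change 0.05, 95% interval -0.60 to 0.71). The HSD range of *Slc6a12* lay within that of CON. Without CON14L, which held its lowest value, the log2 fold change of *Slc6a12* was -0.09.

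*Slc6a6* (3.08 to 5.59 FPKM in CON, 3.35 to 6.34 FPKM in HSD) and *Slc5a3* (0.321 to 1.02 FPKM in CON, 0.580 to 0.927 FPKM in HSD) overlapped between the diets, with log2 fold changes of 0.15 and 0.06. Without CON16L these were 0.33 and 0.14, and without CON14L they were -0.06 and 0.24. *Akr1b3* was near its lower limit in liver, at 0.156, 2.88 and 0.235 FPKM in CON and 0.469, 0.460 and 0.0419 FPKM in HSD. These levels rest on 10, 281 and 18 fragments in CON and 41, 40 and 3 fragments in HSD. The value of 2.88 FPKM is that of CON16L, the liver library with skeletal muscle markers, and without this library the gene fell below the filter and could not be fitted. The interval for the diet effect on *Akr1b3* in liver ran from -2.06 to 0.93. Macrophage markers summed to 76.3 to 84.7 FPKM in CON liver and 31.5 to 52.8 FPKM in HSD liver, and their part was not tested.

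*Slc38a2* was the gene of the set that lay higher in every HSD library of each tissue. Liver and eWAT, which the choice of genes did not use directly, gave this pattern for 148 of 9864 genes (1.5%), *Slc38a2* among them. Over all 3 tissues it held for 25 of 9001 genes (0.278%), but the muscle values had chosen *Slc38a2*. By their codes the eWAT libraries came from the same mice as the muscle libraries, and some of these codes occur again in liver. The liver log2 fold change of *Slc38a2* turned to -0.049 by quantile normalization and to -0.085 without mitochondrially encoded genes.

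The size of the diet effect was also compared between tissues, as an interaction in 1 limma model of the 18 libraries. Of 13067 genes, 0.758% were called for eWAT minus liver, 0.0612% for muscle minus liver and 0% for muscle minus eWAT, and no gene of the set was among them. The model took the libraries as independent, although tissues share mouse codes. With the mouse code as a random block, 101, 8 and 0 genes were called in these contrasts, against 99, 8 and 0. The largest difference with a test was that of *Nfat5*, whose log2 fold change was 0.76 higher in eWAT than in liver (SE 0.23, 95% interval 0.27 to 1.26, limma adjusted p = 0.171). Without CON16L, HS5L and the eWAT library HS5W, which the study's sequencing summary does not list, this difference was 1.01 (SE 0.25, limma adjusted p = 0.0152). That fit called 2455 of 13149 genes (18.7%), and it kept HS3W, the eWAT library with epididymal markers and the highest *Nfat5*. In that fit *Akr1b3* went from 0.10 to -0.98 for eWAT minus liver (limma adjusted p = 0.00869, under 2-fold). Its level in CON liver then rested on 10 and 18 fragments, near the lower limit. Over all 18 libraries *Nfat5* in muscle minus eWAT was -0.50 (95% interval -0.99 to -0.0029, limma adjusted p = 0.622). *Slc38a2* differed by 0.59 between eWAT and liver (SE 0.25, limma adjusted p = 0.314). With only HS3W left out, the differences of *Nfat5* were 0.57 for eWAT minus liver and -0.30 for muscle minus eWAT.

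The tissues of CON mice differed far more than the diets did. All genes tested shifted between tissues on this scale: their median log2 fold change was -0.52 for liver against muscle, 0.93 for eWAT against muscle and 1.36 for eWAT against liver. Calls covered 50.1%, 54.9% and 69.4% of 12637 genes in these contrasts, and 72.4%, 75.4% and 83.8% had an adjusted p below 0.05. Levels are given as they are in FPKM, and differences also relative to that median. After median-ratio scaling the medians were -0.08, 0.07 and -0.03. The fit of the CON libraries also took them as independent. With the mouse code as a random block, 6314, 6953 and 8760 genes were called in the 3 contrasts, against 6329, 6933 and 8768.

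*Slc6a12* and *Slc6a13*, the neighbouring carriers on chromosome 6, were both highest in liver. *Slc6a13* was at 49.8 ± 13.0 FPKM in CON liver, 29.0 ± 3.11 FPKM in CON eWAT and 0.276 ± 0.244 FPKM in CON muscle (SD, n = 3). Liver exceeded muscle by a log2 fold change of 6.03 (SE 0.26, limma adjusted p = 1.85e-07, 6.55 relative to the median) and eWAT exceeded muscle by 5.29 (SE 0.26, adjusted p = 4.78e-07). Liver and eWAT differed by less, with -0.74 for eWAT against liver (SE 0.26, limma adjusted p = 0.0256). Relative to the median this was -2.10, and after median-ratio scaling it was -2.37 and called (limma adjusted p = 5.77e-05). *Slc6a12* was at 17.8 ± 3.07 FPKM in liver, 0.572 ± 0.153 FPKM in eWAT and 0.0514 ± 0.0496 FPKM in muscle. The liver level exceeded that of muscle by 5.05 (SE 0.17, limma adjusted p = 4.17e-08), and the difference of eWAT against liver was -4.09 (SE 0.17, adjusted p = 8.32e-08). The differences against muscle depend on the pseudocount, and ranged from 5.30 to 7.21 for *Slc6a13* and from 4.15 to 6.93 for *Slc6a12* over the settings tried.

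*Slc5a3* was highest in eWAT, at 10.9 ± 1.16 FPKM, against 0.723 ± 0.362 FPKM in liver and 0.478 ± 0.106 FPKM in muscle. The eWAT level exceeded that of muscle by 3.54 (SE 0.22, limma adjusted p = 1.48e-06) and that of liver by 3.26 (SE 0.22, adjusted p = 1.11e-06) on the log2 scale, or by 2.61 and 1.896 relative to the medians. Liver and muscle, the lower neighbours, did not differ beyond their spread on FPKM as deposited (0.28, 95% interval -0.22 to 0.79). Relative to the median this was 0.81, and after median-ratio scaling 0.69 (limma adjusted p = 0.0380), under 2-fold.

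*Nfat5* was also highest in eWAT, at 6.92 ± 0.244 FPKM, then muscle at 3.10 ± 0.0919 FPKM and liver at 1.93 ± 0.363 FPKM. The log2 difference of eWAT was 1.04 against muscle (SE 0.13, limma adjusted p = 9.02e-05) and 1.62 against liver (SE 0.13, adjusted p = 3.31e-06). Relative to the medians these were 0.11 and 0.26, and after median-ratio scaling 0.12 and 0.17, neither of them called. Its order over the tissues was also that of the medians of all genes.

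*Akr1b3* and *Slc6a6* were lowest in liver. *Akr1b3* was at 21.3 ± 1.08 FPKM in muscle, 13.9 ± 0.218 FPKM in eWAT and 1.09 ± 1.55 FPKM in liver, where CON16L made most of the level. Liver lay below muscle by -4.21 (SE 0.52, limma adjusted p = 8.25e-05) and eWAT above liver by 3.61 (SE 0.52, adjusted p = 0.000138), or by -3.69 and 2.25 relative to the medians. Over the settings tried these values ranged from -5.08 to -3.66 and from 2.39 to 4.46, and without CON16L they were -4.97 (SE 0.11) and 4.38 (SE 0.11). Its difference of eWAT against muscle was -0.60 (SE 0.52, limma adjusted p = 0.320, and SE 0.10, adjusted p = 0.000633 without CON16L) on FPKM as deposited, and -1.57 and called after median-ratio scaling (limma adjusted p = 0.0403). *Slc6a6* was at 16.6 ± 2.18 FPKM in muscle, 12.8 ± 2.15 FPKM in eWAT and 4.38 ± 1.26 FPKM in liver. Muscle and eWAT, its upper neighbours, did not differ beyond their spread on FPKM as deposited (-0.36, 95% interval -0.87 to 0.14). Relative to the median this was -1.30, and after median-ratio scaling it was -1.34 and called (limma adjusted p = 0.000393). On FPKM as deposited liver lay below muscle by -1.84 (SE 0.22, limma adjusted p = 6.82e-05). Its difference of 1.47 between eWAT and liver (SE 0.22, limma adjusted p = 0.000178) was 0.11 relative to the median and turned to -0.08 after median-ratio scaling.

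*Slc38a2* was at 22.7 ± 0.926 FPKM in liver, 17.3 ± 0.989 FPKM in muscle and 13.4 ± 1.17 FPKM in CON eWAT. None of its differences reached 2-fold on the FPKM as deposited. After median-ratio scaling the difference of eWAT against liver was -2.35 and called by limma (adjusted p = 1.40e-06). Those with muscle were 1.02 for liver against muscle and -1.33 for eWAT against muscle, given as a description without a test. Relative to the medians of all genes the values were -2.11 for eWAT against liver, 0.91 for liver against muscle and -1.29 for eWAT against muscle. In the 9 HSD libraries the order of liver and muscle turned, from 0.39 in CON to -0.51 in HSD, since HSD muscle was the highest group at 41.6 FPKM.

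**Figure D3:**
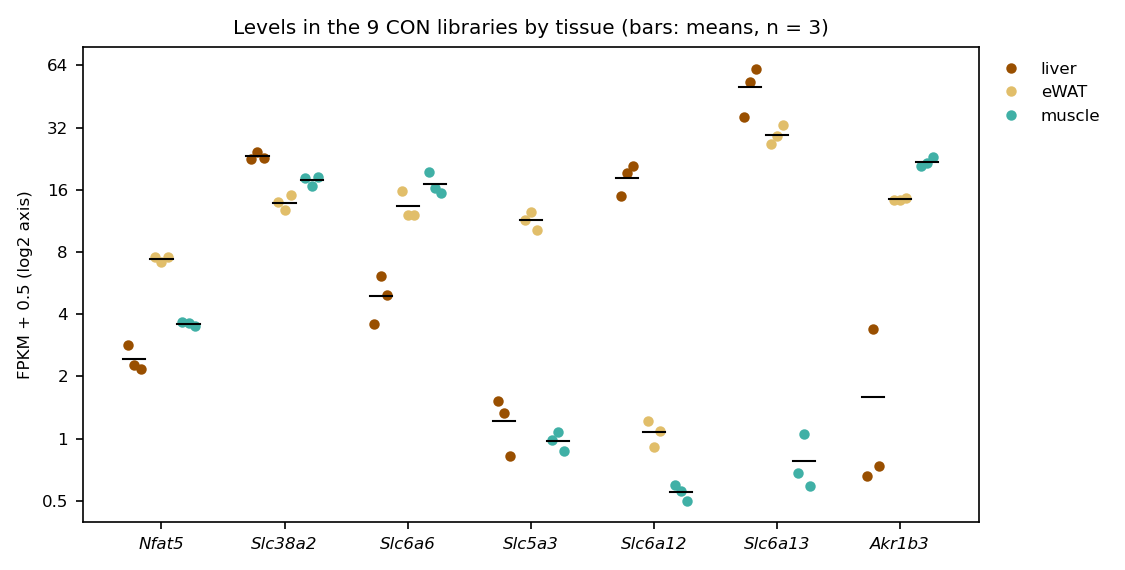
Levels of the 7 genes in the 9 CON libraries as FPKM + 0.5 on a log2 axis, with points for libraries, colours for tissues and bars for the mean of 3 libraries. *Slc6a12* and *Slc6a13* lie highest in liver, *Slc5a3* and *Nfat5* in eWAT and *Akr1b3* and *Slc6a6* in muscle, with *Akr1b3* in liver spread from 0.156 to 2.88 FPKM.

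Other genes of the pathway were described by 6 lists, and over all libraries 1 of their members was called. Among 18 regulators of NFAT5, 17 were tested in muscle and 1 was called, lower in HSD, beside 0.323% of all genes there. It was *Map2k6*, a kinase that activates p38, with 12.9 ± 1.79 FPKM in CON and 5.72 ± 0.809 FPKM in HSD muscle (SD, n = 3, log2 fold change -1.11, SE 0.15, limma adjusted p = 0.0160). Its HSD libraries, at 5.06 to 6.62 FPKM, lay below all CON libraries, at 11.0 to 14.5 FPKM. The list as a whole had a median of -0.06 in muscle, the same as all genes tested. In eWAT and liver none of the regulators was called, and the largest without overlap in eWAT was *Prkaca*, the catalytic subunit of protein kinase A, at 70.7 ± 11.9 FPKM in CON and 41.9 ± 7.79 FPKM in HSD (log2 fold change -0.75, SE 0.19, limma adjusted p = 0.171).

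Of the amino acid response genes, to which *Slc38a2* also belongs by its regulation, 18 were tested in muscle. None was called, 6 lay higher and 1 lower in every HSD library, and their median log2 fold change was 0.20, against -0.06 for all genes, of which 6.72% lay higher and 15.6% lower in every HSD library. The largest without overlap was *Eif4ebp1*, an inhibitor of translation initiation, at 16.2 ± 1.41 FPKM in CON and 28.6 ± 4.12 FPKM in HSD (log2 fold change 0.80, SE 0.14, limma adjusted p = 0.0368, under 2-fold). In eWAT 4 of 19 tested lay higher and 1 lower in every HSD library, beside 16.2% and 12.4% of all genes. Without HS3W, 4 of the 19 were higher and 0 lower at a limma adjusted p below 0.05, none of them 2-fold. Of all genes 3.67% were higher there. Over all libraries the medians in eWAT and liver were -0.04 and 0.13, near those of all genes, at 0.08 and 0.13. The largest without overlap there were *Slc7a1*, a carrier of cationic amino acids, at 1.61 to 1.76 FPKM in CON and 1.79 to 13.0 FPKM in HSD eWAT (limma adjusted p = 0.509, log2 fold change 0.94, and 0.09 without HS3W), and *Cars*, a tRNA synthetase gene, at 7.59 ± 1.048 FPKM in CON and 5.28 ± 0.669 FPKM in HSD liver (limma adjusted p = 0.764).

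The other NFAT5 target genes had a median of 0.38 over 14 tested in eWAT, -0.19 over 8 in liver and -0.22 over 11 in muscle, with none called. In eWAT 3 of the 14 lay higher and 1 lower in every HSD library, beside 16.2% and 12.4% of all genes. Without HS3W the eWAT median was 0.17, beside 0.04 for all genes. There 2 of the 14 were higher and 0 lower at a limma adjusted p below 0.05, none of them 2-fold, and 3.67% of all genes were higher. In muscle *Sgk1*, a kinase that regulates sodium transport, was the largest without overlap, at 65.3 ± 3.68 FPKM in CON and 38.3 ± 4.50 FPKM in HSD (log2 fold change -0.77, SE 0.13, limma adjusted p = 0.0334, under 2-fold). In eWAT that gene was the chemokine gene *Ccl2*, at 5.21 ± 0.780 FPKM in CON and 2.82 ± 1.04 FPKM in HSD (log2 fold change -0.83, SE 0.27, limma adjusted p = 0.236, and -0.54 without HS3W).

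None of the genes for osmolyte synthesis and breakdown was called in any tissue over all libraries (17 to 19 of 22 tested). In eWAT 4 lay higher and 4 lower in every HSD library, beside 16.2% and 12.4% of all genes, and the largest was *Bhmt*, which uses betaine to remethylate homocysteine, at 1.61 ± 0.720 FPKM in CON and 0.205 ± 0.144 FPKM in HSD (log2 fold change -1.55, SE 0.33, limma adjusted p = 0.148). Without HS3W, where 160 of 13245 genes (1.21%) were called, limma called 1 gene of this list higher and 1 lower. These were *Chdh*, which makes betaine aldehyde from choline, at 10.5 ± 2.72 FPKM in CON and 23.8 and 30.4 FPKM in the other HSD libraries (log2 fold change 1.35, SE 0.22, adjusted p = 0.0310), and *Gamt*, which makes creatine, at 30.9 ± 4.75 FPKM in CON and 9.74 and 11.7 FPKM in HSD (-1.48, SE 0.15, adjusted p = 0.0212). In muscle *Gadl1*, a decarboxylase of acidic amino acids, was at 3.33 ± 0.852 FPKM in CON and 1.85 ± 0.635 FPKM in HSD (log2 fold change -0.72, limma adjusted p = 0.173).

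Of the other osmolyte and neutral amino acid carriers, 10 to 13 of 17 were tested and none was called. *Slc38a4*, a liver carrier of the same family as *Slc38a2*, was at 109 ± 39.4 FPKM in CON and 226 ± 67.6 FPKM in HSD liver (log2 fold change 1.08, SE 0.47, limma adjusted p = 0.764). *Slc38a3*, a glutamine carrier, was at 11.7 ± 0.440 FPKM in CON and 14.4 ± 1.78 FPKM in HSD muscle (log2 fold change 0.28, SE 0.12, limma adjusted p = 0.297). *Slc2a13*, a proton-coupled carrier of myo-inositol, was at 3.69 ± 0.347 FPKM in CON and 1.82 ± 0.805 FPKM in HSD eWAT (log2 fold change -0.92, SE 0.30, limma adjusted p = 0.232), and its log2 fold change was -0.59 without HS3W.

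The relatives of aldose reductase (4 genes, 3 or 4 tested) held no call either. *Akr1b8* was at 12.8 ± 0.795 FPKM in CON and 7.64 ± 2.96 FPKM in HSD eWAT, lower in every HSD library as *Akr1b3* was (log2 fold change -0.78, SE 0.30, limma adjusted p = 0.278), and HS3W was the lowest at 4.28 FPKM. Without HS3W the log2 fold change of *Akr1b8* was -0.44 (SE 0.09). *Akr1b10* was at 0.526 to 2.46 FPKM in CON and 0.218 to 0.434 FPKM in HSD liver, with its highest value again in CON16L.

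**Figure D4:**
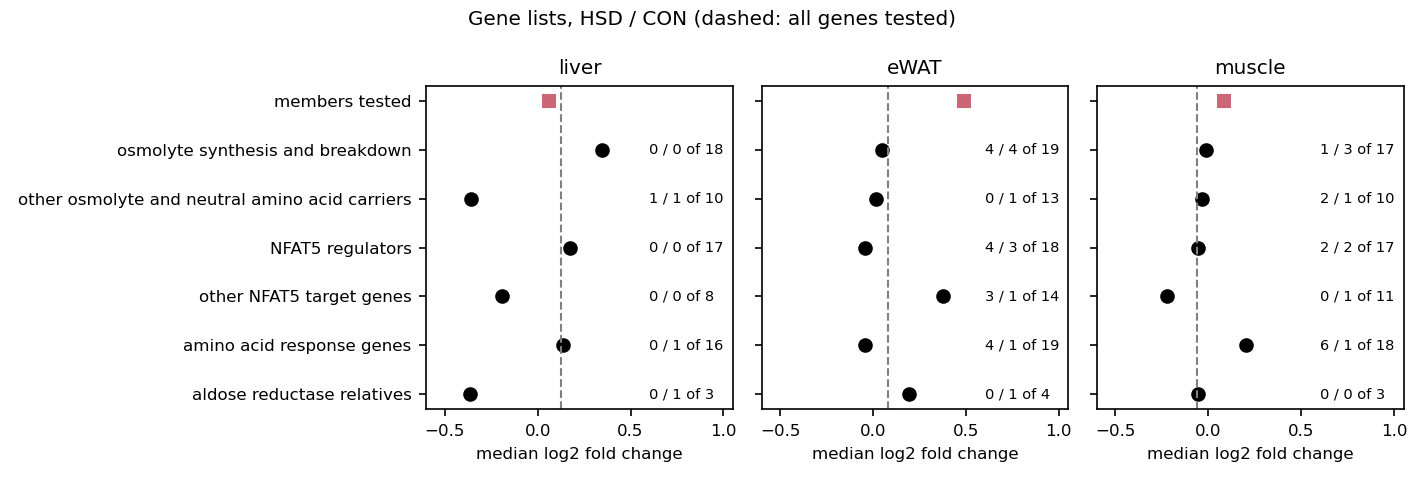
Median log2 fold change, HSD over CON, of the osmolyte genes that passed the filter (red squares) and of the 6 pathway lists (black points) in each tissue. A dashed line marks the median of all genes. The red square of muscle includes *Slc38a2*, whose value there chose the set, and is a description. Numbers give the genes higher and lower in every HSD library, of those tested, and the red square of eWAT at 0.49 is the farthest to the right.

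As a description over 6 libraries, the genes whose log2(FPKM + 0.5) in muscle was most like that of *Slc38a2* were *Osgin1* (Pearson r = 0.991), *Cul1* (0.990), *Sqstm1* (0.988), *Plekha1* (0.985) and *Eif3j1* (0.985). *Osgin1* went from a mean of 3.50 FPKM in CON to 8.80 FPKM in HSD muscle, and *Sqstm1*, an autophagy receptor gene, from 176 to 235 FPKM. *Nfat5* was most like *Ccp110* in eWAT (0.997), and *Slc5a3* most like *Zfp2* in eWAT (0.992). *Slc6a6* and *Akr1b3* were most like *Etnk1* (0.995) and *Ndufaf8* (0.994) in muscle, and *Slc6a12* and *Slc6a13* most like *Ndufa11* (0.984) and *Slc25a10* (0.983) in liver. The 6 libraries of a tissue share 2 diet groups, and the highest among many coefficients over 6 points is high in any case.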

How the data were processed

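RNA of liver, eWAT and QU muscle was sequenced after rRNA depletion with a stranded kit. By the paper's account, reads were trimmed and mapped with hisat2 to build mm10, and cuffdiff gave the FPKM of each gene. The submitters' processing notes also name HTSeq 0.9.1, without a role. Of 18789 genes above 0 with a length in GENCODE M21, 97.7% were whole numbers of fragments in all 18 libraries (tolerance 0.05), which gave the fragments behind the FPKM. All columns were used (0 left out).

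Tissue and diet came from the labels. limma (version 3.58.1, R 4.3.3) was fitted on log2(FPKM + 0.5), leaving out genes whose mean was under 0.5 FPKM, with a trend in the variance, per tissue for diet, over 9 CON libraries for tissue and over 18 libraries for interactions. This scale understates changes of low genes. An exact permutation test of 3 against 3 cannot go below 0.1. The genes and lists were chosen with earlier results of these data known. Named from lists were called genes, otherwise the largest change without overlap between diets. Deviations of libraries with the same replicate number correlated at 0.383, 0.177 and 0.184 in muscle, so that block was run beside the count there. In eWAT these correlations were -0.197, 0.061 and 0.414, and in liver they were -0.4725, 0.3955 and -0.213. Libraries of a group carry different mouse codes, and p-values measure only the spread between them. The script was tested on simulated data. Python 3.11.15, pandas 2.3.3 and matplotlib 3.10.9 were used.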

Additional observations from a re-analysis of the deposited data

How the results depend on the processing

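The number of called genes depended on the settings. In liver (0 called) it was 926 with arrayWeights, 41 with all tissues in 1 fit, 35 over the libraries of the study's sequencing summary, 3 with the mitochondrial share as a covariate and 0 to 1 with single libraries left out (1 without CON replicate 2). In eWAT (0 called) it was 220 with arrayWeights, 161 with all tissues in 1 fit and 0 to 160 with single libraries left out (160 without HSD replicate 2, 984 there by adjusted p alone, and 1 without CON replicate 3). In muscle (35 called) it was 7 without a filter, 97 by adjusted p alone, 54 with the replicate block, 5 with all tissues in 1 fit, 66 with limma voom on recovered fragments and 10 to 61 with single libraries left out (13 and 10 without CON replicates 1 and 3, 61, 15 and 23 without HSD replicates 1, 2 and 3). The replicate block gave 0 calls in liver and eWAT and changed no call of the 7 genes. Median-ratio scaling gave 5176 calls for CON eWAT against liver (8768 called). Without the libraries absent from the sequencing summary the interactions gave 1286 (muscle minus liver), 170 (muscle minus eWAT) and 2455 (eWAT minus liver), and without eWAT HSD replicate 2 the first and second gave 16 and 3. Added after the data were seen were voom and the settings without eWAT HSD replicate 2 at adjusted p alone or in interactions.

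Among the 7 genes, some log2 fold changes changed sign. In liver, *Slc38a2* became -0.049 by quantile normalization and -0.085 without mitochondrially encoded genes, which moved the median of all genes from 0.13 to -0.23. Without these genes, *Slc6a6* became -0.23, *Slc6a13* -0.059, *Slc6a12* -0.36 and *Slc5a3* -0.23, and in muscle *Akr1b3* -0.024. *Slc6a13* was -0.050 and *Slc6a12* -0.26 by quantile normalization, and *Slc6a12* was -0.049 by median-ratio scaling, -0.10 by voom with such library sizes, -0.031 with arrayWeights and -0.040 with the mitochondrial covariate, under which *Slc6a6* was -0.20. *Akr1b3* was 0.33 with arrayWeights in liver. With single libraries left out, values in liver ranged from -0.057 to 0.38 for *Slc6a6*, from -0.089 to 0.15 for *Slc6a12* and from -0.20 to 0.24 for *Slc5a3*. In eWAT they ranged from -0.39 to 0.20 for *Slc6a13* (the upper value without HSD replicate 2) and from -0.19 to 0.090 for *Slc6a12*. In muscle they ranged from -0.051 to 0.16 for *Akr1b3*, from -0.0082 to 0.32 for *Slc6a6* and from -0.011 to 0.11 for *Slc5a3*. With arrayWeights, *Slc6a13* was 0.16 in eWAT. Between tissues, *Slc38a2* was -0.51 (liver against muscle) and *Slc6a6* 0.22 (eWAT against muscle) in HSD libraries, and *Slc6a6* -0.079 (eWAT against liver) by median-ratio scaling. Without the libraries absent from the summary, *Akr1b3* was -0.44 and *Slc5a3* -0.081 for muscle minus liver and *Akr1b3* -0.98 for eWAT minus liver. Without eWAT HSD replicate 2, *Slc6a13* was -0.35 and *Slc6a12* -0.019 for muscle minus eWAT. With arrayWeights *Slc6a6* was among the 220 genes called in eWAT. The cause of these changes was not tested. Depth limits *Slc6a12* and *Slc6a13* in muscle and *Akr1b3* in liver.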

Other observations

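The order of *Slc6a6*, the taurine carrier, over mouse codes was alike in eWAT and muscle. Among HSD mice, HS2 was highest (31.3 FPKM in eWAT and 22.4 FPKM in muscle), HS5 followed (20.5 and 19.3 FPKM) and HS3 was lowest (14.9 and 14.0 FPKM). Among CON mice, CON16 was highest in both tissues (15.3 and 19.1 FPKM), while CON71 and CON72 lay close to each other in eWAT (both at 11.6 FPKM) and in muscle (15.9 and 14.9 FPKM). The eWAT library of HS3 is HS3W, with epididymal markers and the lowest adipocyte markers of the tissue. That of HS2 held the most male germ cell markers (682 FPKM). The CON16 libraries had the highest sums of 5 blood cell markers in eWAT (5667 FPKM) and muscle (965 FPKM). The *Slc6a6* values are those of 6 mice, noticed after the data were seen. Neither their order nor the part of these markers in it was tested.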
